A study of Homo sapiens with 4 samples.

Results

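The 10 genes followed here were chosen by symbol as antigens or therapy targets on the surface of myeloma cells: TNFRSF17 (BCMA), TNFRSF13B (TACI), SLAMF7, CD38, SDC1 (CD138), FCRL5, GPRC5D, CD27, ITGB7 and CD47. All 10 were found among the 16057 genes of the deposited expression table, and 9 of them had a mean of at least 1 TPM and entered the test. TPM, the transcript share of a library scaled to a common total, is a level per transcript length, so levels of different genes can be compared within a library. The selection rule is the gene symbol, and the antigens were chosen with earlier results of these data known.

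RNA sequencing was applied to the established line MM.1S, human myeloma cells that carry a translocation activating the transcription factor MAF. Cells received the allosteric HSP70 inhibitor JG342 at 350 nM or its solvent DMSO, and both groups were collected after 26 h. Each treatment had 2 libraries, described as biological duplicates and numbered 1 and 2. Both groups are 1 cell line in culture medium, so marrow stroma and immune cells are not part of the model. The comparison asks how antigen transcripts differ between inhibited and control cells.

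Myeloma is a cancer of plasma cells, and the surface proteins that plasma cells carry are the handles for antibodies, bispecific antibodies and engineered T cells. BCMA and TACI are receptors for the survival ligands BAFF and APRIL, SLAMF7 is the target of elotuzumab, CD38 that of daratumumab, and GPRC5D that of talquetamab. How much of an antigen a cell displays depends on transcription, on folding and transport through the secretory pathway, and on shedding by proteases. RNA sequencing reads the level of transcripts, and neither the later steps nor the rate of transcription itself.

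The libraries were of similar depth. Their TPM totals lay between 994463 and 994718, and an approximate depth read from the steps between low values was 9020000 to 9990000 reads. Plasma cell markers were detected at unlike levels. XBP1, the factor that builds the secretory apparatus, lay at 997 to 1274 TPM. JCHAIN, the joining chain of secreted antibodies, lay at 5431 to 10383 TPM. MZB1 was at 1442 to 1566 TPM, IRF4 at 353 to 615 TPM and PRDM1 at 154 to 220 TPM. CD38 was lower, at 22.04 to 29.2 TPM, and TNFRSF17 and SDC1 are given below. The B-cell marker PAX5 stayed at or below 0.26 TPM, whereas MS4A1 and CD22 were not analysed here. Of the myeloid markers LYZ (lysozyme) was detected at 37.0 to 46.2 TPM in both treatments, while CD14, CSF1R and ITGAM reached at most 0.99 TPM. The T and NK markers CD3E and GNLY reached 7.70 and 10.99 TPM, CD2 was at most 0.27 TPM, and CD3D and NKG7 were not analysed here. The stromal markers COL1A1, COL1A2 and DCN reached at most 0.22 TPM.

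The antigens spanned a wide range of expression. ITGB7, the integrin beta 7 chain and a known target of MAF, was among the most abundant transcripts of the cell, with rank 4 and rank 6 of all genes in DMSO and rank 3 and rank 4 in JG342. Its level was 9155 ± 952 TPM (SD, n = 2) with DMSO, which is 0.921% of the library total. TNFRSF17 was next at 671 ± 127 TPM, at percentile 98.8 of all genes. SLAMF7 (412 ± 95.4 TPM), SDC1 (330.1 ± 69.1 TPM) and GPRC5D (327 ± 50.6 TPM) followed. The ranges of SLAMF7 and SDC1 overlapped in DMSO, although SLAMF7 was above SDC1 within each library. Those of SDC1 and GPRC5D also overlapped, and their order differed between the DMSO libraries. TNFRSF13B at 247 ± 8.56 TPM came below GPRC5D without overlap. CD47, the signal that restrains phagocytes, lay at 66.7 ± 2.02 TPM and CD38 at 27.6 ± 2.31 TPM. CD27, a receptor of memory B cells and normal plasma cells that is often lost in myeloma, was low at 2.90 ± 0.61 TPM. FCRL5 (NM_001195388), an Fc receptor-like antigen, was listed at 0.27 and 0.08 TPM in DMSO and 0.08 and 0.22 TPM in JG342, which corresponds to about 7, 2, 2 and 6 reads, and it was not tested. In JG342 the order differed at 1 place, with SLAMF7 (508 ± 78.7 TPM) second and TNFRSF17 (490.1 ± 38.7 TPM) behind it, and their libraries overlapped. Summed over the 9 antigens other than ITGB7, the level was 2332 and 1836 TPM in DMSO and 1902 and 1682 TPM in JG342, so the ranges overlapped, while both same-numbered pairs were lower in JG342.

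**Figure D1:**
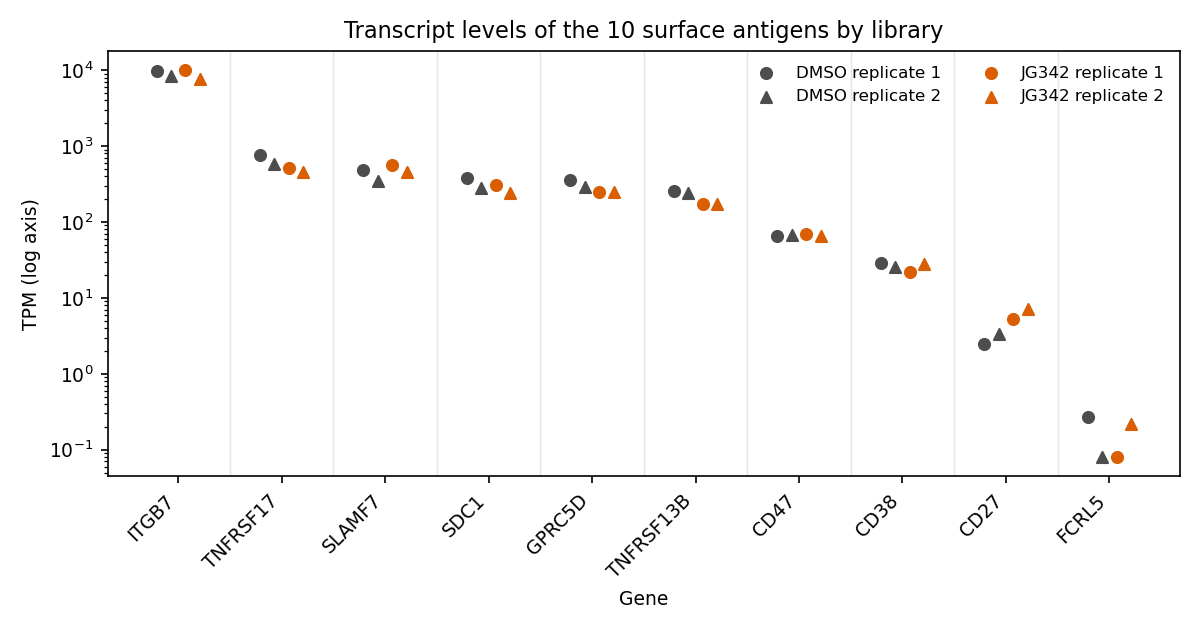
Level of each of the 10 antigens in TPM on a log axis, 1 point per library (grey DMSO, orange JG342, circles replicate 1, triangles replicate 2). ITGB7 stands above the rest at 7697 to 10037 TPM, FCRL5 lies below 0.3 TPM in every library, and the orange points of TNFRSF17, GPRC5D and TNFRSF13B lie below the grey ones.

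After JG342, 3 antigens were lower and 1 was higher among the 9 tested. TNFRSF13B fell by 30.3%, TNFRSF17 by 27.0% and GPRC5D by 24.2% in mean TPM, and CD27 rose 2.15-fold. Over all 12042 genes tested, 18.4% passed the same test (limma adjusted p under 0.05 by Benjamini-Hochberg), with 7.62% lower and 10.8% higher. Of the genes that passed, 58.7% were higher, and 44.6% after scaling the libraries to equal medians. In a fit that also held the replicate number as a block, 34.9% of all genes passed, and of the antigens 2 were higher and 4 lower. With block and median scaling together 33.1% passed, and of the antigens 1 was higher and 4 were lower. The median log2 fold change of the 9 antigens was −0.15 against 0.03 for all genes tested. All log2 fold changes are differences of log2(TPM + 1), JG342 minus DMSO. The 4 antigens that passed were also the 4 whose libraries did not overlap between treatments, which held for 62.1% of all genes. Whether fewer cells carried a transcript or each cell carried less cannot be told apart in these pooled cells.

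TNFRSF13B (NM_012452), which encodes TACI, was measured at 253 and 241 TPM in DMSO and at 170.3 and 174 TPM in JG342. Both JG342 libraries lay well below both DMSO libraries, and the libraries of 1 treatment nearly coincided. The log2 fold change was −0.52 ± 0.09 (SE; 95% confidence interval −0.72 to −0.31; limma adjusted p 0.00633). Without DMSO replicate 1 it was −0.48 at a limma adjusted p of 0.0502, which missed the threshold, and with any other library left out it passed.

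TNFRSF17 (NM_001192), which encodes BCMA, was at 761 and 582 TPM in DMSO and at 517 and 463 TPM in JG342. The ranges did not overlap, but the DMSO libraries differed from each other by more than DMSO replicate 2 differed from JG342 replicate 1. The log2 fold change was −0.44 ± 0.13 (SE; interval −0.74 to −0.14; limma adjusted p 0.0472). Without DMSO replicate 1 it was −0.25 (limma adjusted p 0.288), and without JG342 replicate 2 it was −0.36 (limma adjusted p 0.123). TNFRSF17 exceeded TNFRSF13B by 3.01 and 2.42 times in DMSO and by 3.04 and 2.66 times in JG342, so the proportion of the paired receptors overlapped between treatments.

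GPRC5D (NM_018654), an orphan G protein-coupled receptor of plasma cells and hair follicles, was at 363 and 291 TPM in DMSO and at 245 and 251 TPM in JG342. The JG342 libraries were close together and below both controls. The log2 fold change was −0.39 ± 0.12 (SE; interval −0.65 to −0.13; limma adjusted p 0.0463). It was −0.23 without DMSO replicate 1 (limma adjusted p 0.286), −0.37 without JG342 replicate 1 (0.113) and −0.41 without JG342 replicate 2 (0.0713). After scaling the libraries to equal medians, TNFRSF17 and GPRC5D were at −0.51 and −0.46 and missed the threshold (limma adjusted p 0.0554 and 0.0537), as they did after quantile normalization (0.0889 and 0.0990), without a filter on low genes (0.159 and 0.132) and without the mean-variance trend (0.122 for both). With the block and median scaling together, TNFRSF17 and GPRC5D were below the threshold (limma adjusted p 0.00597 and 0.0134). The block was not combined with quantile normalization, no filter or no trend.

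CD27 (NM_001242) was the antigen with the largest change and the only one of the 9 that rose past the threshold. It was at 2.47 and 3.33 TPM in DMSO and at 5.27 and 7.18 TPM in JG342, which corresponds to about 15, 21, 31 and 48 reads. All 4 libraries are low, and both JG342 libraries lay above both controls. The log2 fold change was 0.89 ± 0.20 (SE; interval 0.42 to 1.35; limma adjusted p 0.0185). It was 0.73 without DMSO replicate 1 (limma adjusted p 0.105) and 0.69 without JG342 replicate 2 (0.0707), and without a filter on low genes the limma adjusted p was 0.0869. The antisense gene CD27-AS1 overlaps 39.0% of the exonic sequence of CD27 in GENCODE 29. Strand-specific counting is not stated, so reads of the 2 genes may not have been told apart.

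**Figure D2:**
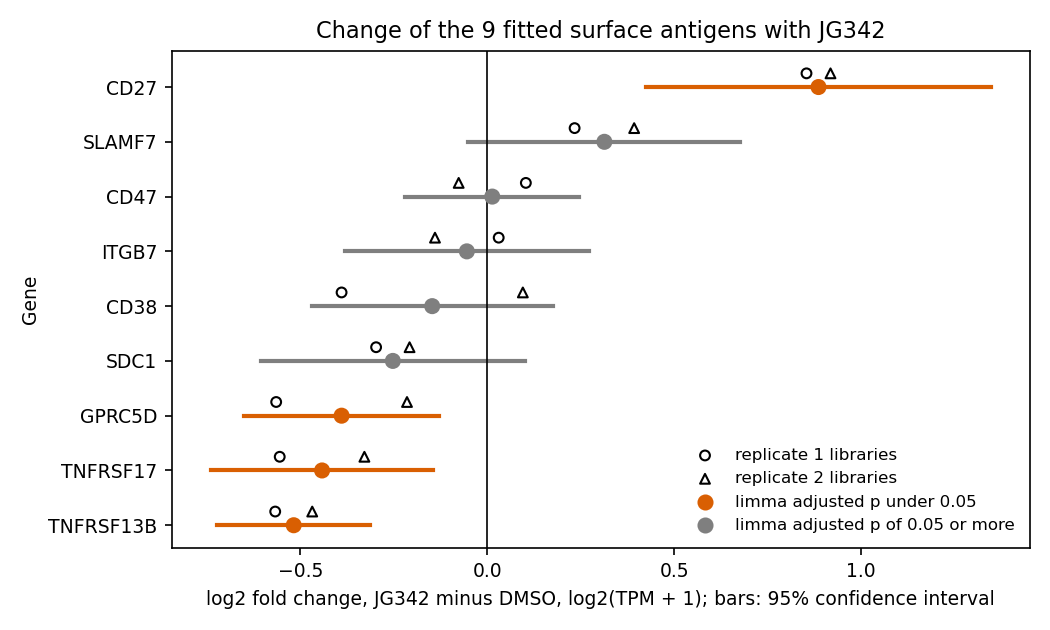
Log2 fold change of the 9 tested antigens, JG342 minus DMSO, with 95% confidence intervals (filled points and bars, orange where the limma adjusted p was under 0.05) and the change within each pair of same-numbered libraries (open symbols). TNFRSF13B, TNFRSF17 and GPRC5D lie left of 0 and CD27 right of 0 in both pairs, while the pairs of CD47, ITGB7 and CD38 fall on opposite sides of 0.

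Sequences upstream of the transcription start are shown for 3 of the antigens that changed and for CD38, which did not pass, because start-proximal motifs are where stress factors and plasma cell factors would be looked for. Of the 10 genes, 8 had an entry in the RefSeq promoter table (GRCh38.p14). Each sequence is the 250 bases before the start, 5′ to 3′ on the gene's strand, with matches to the searched motifs in capitals.
TNFRSF13B (chr17:16972119-16972368, minus strand): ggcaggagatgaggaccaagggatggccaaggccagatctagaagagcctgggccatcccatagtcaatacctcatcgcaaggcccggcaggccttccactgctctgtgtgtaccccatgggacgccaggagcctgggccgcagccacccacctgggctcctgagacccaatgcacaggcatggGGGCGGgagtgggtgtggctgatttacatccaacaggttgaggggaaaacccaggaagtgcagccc
GPRC5D (chr12:12952171-12952420, minus strand): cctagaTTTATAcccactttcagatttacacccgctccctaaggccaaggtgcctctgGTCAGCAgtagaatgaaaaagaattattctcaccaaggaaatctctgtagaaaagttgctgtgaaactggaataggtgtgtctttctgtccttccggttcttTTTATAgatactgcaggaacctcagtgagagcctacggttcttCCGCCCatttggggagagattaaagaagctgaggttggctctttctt
CD27 (chr12:6443642-6443891, plus strand): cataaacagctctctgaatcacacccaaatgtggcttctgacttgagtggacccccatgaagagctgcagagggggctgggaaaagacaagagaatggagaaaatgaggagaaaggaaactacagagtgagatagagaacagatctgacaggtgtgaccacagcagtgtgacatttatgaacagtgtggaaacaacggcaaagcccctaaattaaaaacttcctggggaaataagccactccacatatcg
CD38 (chr4:15778078-15778327, plus strand): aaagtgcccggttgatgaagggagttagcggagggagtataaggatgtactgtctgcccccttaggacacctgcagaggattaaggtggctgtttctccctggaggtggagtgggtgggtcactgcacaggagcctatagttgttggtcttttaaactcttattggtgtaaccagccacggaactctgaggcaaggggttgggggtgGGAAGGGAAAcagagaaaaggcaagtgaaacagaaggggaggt

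The motifs were searched on both strands over the 250 bases: the heat shock element core GAANNTTC, the amino acid response motif TGATGNAA bound by ATF4 with C/EBP factors, the MAF recognition motif TGCTGAC, the ETS-IRF composite element, the GC box GGGCGG and the TATA box TATAAA. TNFRSF13B held 1 GC box, a motif found in 42.6% of 35116 promoter windows. GPRC5D held a MAF motif on the reverse strand, between 192 and 186 bases before the start, against 3.43% of all windows, as well as 1 GC box and 2 matches to the TATA box letters on the reverse strand (10.7% of windows). The CD27 window held none of the 6 motifs. The CD38 window held an ETS-IRF composite between 43 and 34 bases before its start, found in 2.41% of windows. No window of the 8 genes held the heat shock core or the amino acid response motif, which occur in 5.78% and 3.14% of all windows. The motifs do not overlap one another in the printed sequences, and a match describes letters, not a bound site.

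The other 5 tested antigens did not pass. SLAMF7 (NM_001282588), a self-ligand receptor of the SLAM family, was at 479 and 344 TPM in DMSO and at 563 and 452 TPM in JG342. JG342 replicate 2 lay between the controls, so the treatments overlapped, although SLAMF7 was higher within both same-numbered pairs, by 0.23 and 0.39 on the log2 scale. The log2 fold change was 0.31 ± 0.16 (SE; interval −0.05 to 0.68; limma adjusted p 0.208). With 1 library left out it ranged from 0.08, without DMSO replicate 2, to 0.55, without DMSO replicate 1. Under the block the limma adjusted p was 0.000422, and with the block and median scaling together it was 0.0733. SLAMF7 stood below TNFRSF17 in DMSO, at 0.63 and 0.59 times its level, and beside it in JG342, at 1.09 and 0.98 times, a ratio computed after the values had been seen.

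SDC1 (NM_001006946), the heparan sulfate proteoglycan that defines plasma cells in the clinic, was at 379 and 281 TPM in DMSO and at 308 and 243 TPM in JG342. The treatments overlapped, while both same-numbered pairs were lower after JG342, by −0.30 and −0.21. The log2 fold change was −0.25 ± 0.16 (SE; interval −0.61 to 0.10; limma adjusted p 0.292). With 1 library left out it ranged from −0.47, without DMSO replicate 2, to −0.04, without DMSO replicate 1. With the block the limma adjusted p was 0.00764, and 0.0196 with the block and median scaling. In the block fit the prior was infinite, so each variance was taken from the trend over all genes at that expression level and the residual of the gene itself was not used.

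CD38 (NM_001775), an ectoenzyme that consumes NAD, was at 29.2 and 25.9 TPM in DMSO and at 22.04 and 27.8 TPM in JG342. Its pairs went opposite ways, and the log2 fold change was −0.15 ± 0.14 (SE; interval −0.47 to 0.17; limma adjusted p 0.504). CD47 (NM_001777) was at 65.3 and 68.1 TPM in DMSO and at 70.2 and 64.5 TPM in JG342. The CD47 libraries were mixed in order, with a log2 fold change of 0.01 ± 0.10 (SE; interval −0.22 to 0.25; limma adjusted p 0.946).

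ITGB7 (NM_000889) was at 9828 and 8483 TPM in DMSO and at 10037 and 7697 TPM in JG342. The JG342 libraries bracketed both controls, and the log2 fold change was −0.05 ± 0.14 (SE; interval −0.38 to 0.27; limma adjusted p 0.827), with the opposite sign after quantile normalization (0.24; limma adjusted p 0.182). ITGB7 lies opposite ZNF740, whose exons overlap 49.0% of its exonic sequence. ZNF740, named after its values were seen, was listed at 8.60 to 12.8 TPM, far below ITGB7.

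**Figure D3:**
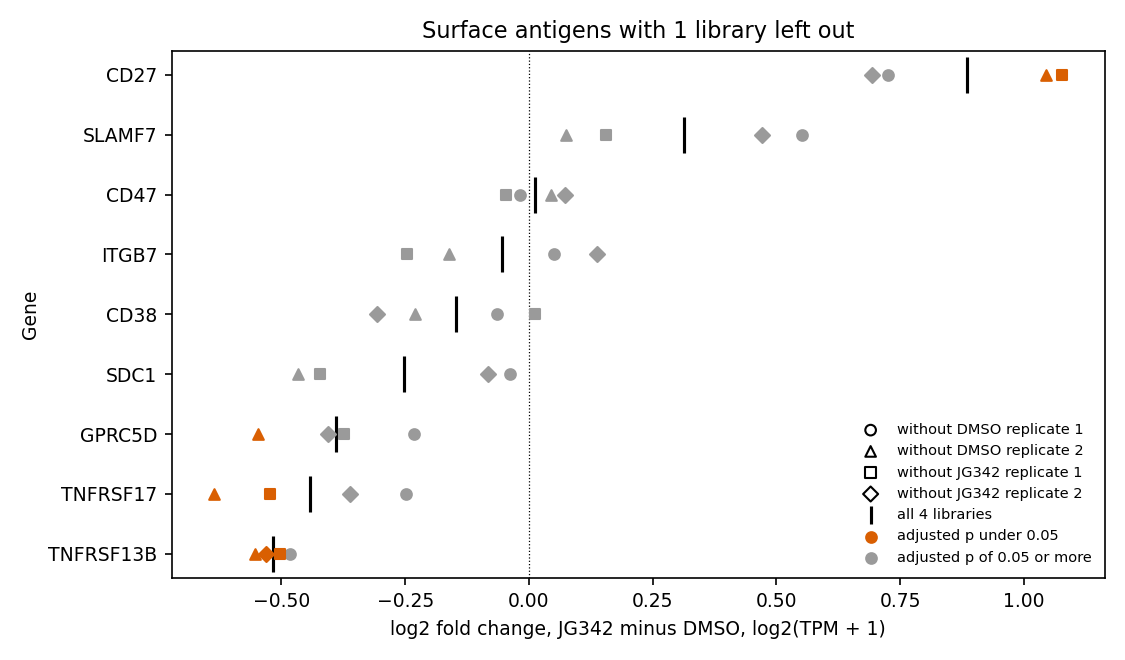
Log2 fold change of each tested antigen with all 4 libraries (black bar) and with 1 library left out (symbols; orange where the limma adjusted p was under 0.05). TNFRSF13B kept values between −0.55 and −0.48, whereas GPRC5D ranged from −0.55 to −0.23 and lost its call without 3 of the 4 libraries.

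Beyond the antigens, lists of their ligands, adaptors, partners, relatives and processing enzymes were followed. Counts below are to be read against the 18.4% of all tested genes that passed. Counts with the replicate block are to be read against the 34.9% that passed in that fit. Without a filter on low genes, TRAF2, ADAM17, NCSTN, PSENEN, HS6ST1, XYLT1, CD48, NMNAT1, ITGB2, MAF, SIRPA, BCL2, PRDM1, CD59, CCR10, CD44 and NCAM1 missed the threshold (limma adjusted p 0.0510 for CCR10 to 0.164 for SIRPA). Without the mean-variance trend NCSTN, PSENEN, HS6ST1, XYLT1, CD48, NMNAT1, MAF, SIRPA, BCL2, MCL1, PRDM1, CD44 and NCAM1 missed it (limma adjusted p 0.0560 for MCL1 to 0.122 for CD44). In the BCMA and TACI pathway 1 of 9 tested genes was lower and none higher, with a median log2 fold change of 0.13. TRAF2, an adaptor recruited by BCMA and TACI, fell from 35.3 ± 1.88 to 24.6 ± 1.65 TPM (SD, n = 2), by −0.51 ± 0.12 (limma adjusted p 0.0196). With 1 library left out TRAF2 ranged from −0.57 to −0.44 and passed only without JG342 replicate 2, with limma adjusted p up to 0.122 without DMSO replicate 1. TNFSF13 (APRIL) was listed at 12.1 to 14.03 TPM and TNFSF13B (BAFF) at 0.81 to 1.39 TPM. The TNFSF13 transcript shares 54.1% of its length with TNFSF12-TNFSF13, which is not listed, so the APRIL level may include reads of that gene. The BAFF receptor gene TNFRSF13C had a mean under 1 TPM and was not tested. With the replicate block 3 of the 9 passed.

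Enzymes cleave or trim several of these antigens. The proteases gamma-secretase and ADAM10 cleave BCMA and TACI, and heparanase, which is not a protease, trims the heparan sulfate of SDC1. Of 8 tested genes of this list 3 were higher and none lower, with a median of 0.19. The gamma-secretase subunit genes PSENEN and NCSTN rose, PSENEN from 81.6 ± 3.42 to 108 ± 4.79 TPM (SD, n = 2; log2 fold change 0.40 ± 0.10, limma adjusted p 0.0228) and NCSTN from 98.3 ± 1.75 to 127 ± 10.2 TPM (0.36 ± 0.10, limma adjusted p 0.0371). The sheddase ADAM17 rose from 19.1 ± 0.63 to 26.6 ± 0.95 TPM (0.46 ± 0.12, limma adjusted p 0.0290). The subunit genes PSEN2 and APH1A differed by 0.06 and 0.07 and did not pass, and ADAM10 and HPSE were at −0.40 and −0.42 (limma adjusted p 0.0556 and 0.0912). These calls were fragile. ADAM17 missed the threshold whichever library was left out (limma adjusted p 0.0588 to 0.160), NCSTN passed only without JG342 replicate 2 and PSENEN only without JG342 replicate 1, with limma adjusted p up to 0.179 and 0.130 without DMSO replicate 2 and DMSO replicate 1. After median scaling all 3 missed the threshold, at limma adjusted p of 0.0659 (NCSTN), 0.0523 (PSENEN) and 0.0524 (ADAM17), as did ADAM17 after quantile normalization (0.0530). Exons of IAH1 overlap 27.97% of ADAM17 on the other strand. For PSENEN those of U2AF1L4 overlap 17.99%, and those of clone-named genes 23.0% and 9.38%. With the block 5 of the 8 passed.

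Among syndecans and the enzymes that build heparan sulfate, 3 of 19 tested genes were higher and 1 was lower, with a median of 0.03. SDC3, a syndecan best known from neurons, was at 0.78 and 1.29 TPM in DMSO and at 4 and 4.69 TPM in JG342, a log2 fold change of 1.40 ± 0.21 (limma adjusted p 0.00332). Its controls are near the limit of detection, and its level in JG342 remained far below the SDC1 level. SDCBP (syntenin, which binds syndecan tails) rose from 66.8 ± 1.11 to 100.5 ± 1.06 TPM (SD, n = 2; 0.58 ± 0.10, limma adjusted p 0.00517). XYLT1, which starts the glycosaminoglycan chain, rose by 0.66 ± 0.16 (limma adjusted p 0.0242), and HS6ST1, a sulfotransferase, fell by 0.43 ± 0.11 on the log2 scale (limma adjusted p 0.0285). SDC3 and SDCBP passed with any 1 library left out. XYLT1 and HS6ST1 passed only without JG342 replicate 2, and ranged from 0.44 to 0.88 and from −0.48 to −0.38 with 1 library left out, with limma adjusted p of 0.122 and 0.136 without DMSO replicate 1. HS6ST1 shares 31.4% of its transcript with a pseudogene. With the block 9 of the 19 passed.

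The SLAM family and its adaptors had 2 of 8 tested genes higher and none lower, with a median of 0.19. FYN, a Src-family kinase that SLAM receptors engage through the adaptor SAP, was at 13.3 and 15.1 TPM in DMSO and at 50.7 and 53.7 TPM in JG342. The groups were far apart, with a log2 fold change of 1.81 ± 0.12 (limma adjusted p 5.92e-05), and FYN passed with any 1 library left out. The adaptor genes SH2D1A (SAP) and SH2D1B (EAT-2) were at or below 0.16 TPM in all libraries. CD48, a SLAM-family antigen, was at 554 and 457 TPM in DMSO and at 694 and 696 TPM in JG342, above the SLAMF7 level in the same library each time. Its log2 fold change was 0.47 ± 0.11 (limma adjusted p 0.0189). Without DMSO replicate 2 it was 0.33 (limma adjusted p 0.170), and after median scaling it missed the threshold (0.40; 0.0671). A noncoding gene overlaps 29.8% of CD48 on the other strand. With the block 3 of the 8 passed.

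In the FCRL family FCRLA, an intracellular relative of FCRL5 that resides in the endoplasmic reticulum, was the only gene with a mean of at least 1 TPM. FCRLA was at 33.01 and 24.8 TPM in DMSO and at 79.1 and 65.4 TPM in JG342. It rose by 1.30 ± 0.15 (limma adjusted p 0.00123) and passed with any 1 library left out. FCRL1, FCRL2, FCRL4, FCRL6 and FCRLB reached at most 1.88 TPM in any library, and FCRL3 was not analysed here. The GPRC5 relatives GPRC5A, GPRC5B and GPRC5C reached at most 0.34 TPM, so GPRC5D was the detected member of its family.

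CD27 itself is counted with the antigens. In the list of its axis and other costimulatory TNF receptors 4 genes were tested, CD70, SIVA1, CD40 and TNFRSF9. None of them passed in limma, with or without the block, and none had an unadjusted p under 0.05. CD70, the ligand of CD27, was at 72.1 and 67.9 TPM in DMSO and at 73.5 and 73.1 TPM in JG342 (log2 fold change 0.07 ± 0.10, limma adjusted p 0.683). The ligand was thus listed above its receptor in every library.

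Of 16 tested integrin genes, activators and ligands 2 were higher and none lower, with a median of 0.08. The changed genes were ITGAL and ITGB2, which encode both chains of the lymphocyte integrin LFA-1. ITGAL rose from 51.9 ± 2.86 to 76.4 ± 2.49 TPM (SD, n = 2; 0.55 ± 0.10, limma adjusted p 0.00852). ITGB2 was at 1.15 and 0.22 TPM in DMSO and at 2.40 and 5.10 TPM in JG342 (1.49 ± 0.34, limma adjusted p 0.0180). The libraries of each treatment were far apart for ITGB2, at about 16 and 3 reads in DMSO and 31 and 75 in JG342. With a DMSO mean of 0.685 TPM, ITGB2 entered the test only through its JG342 libraries. Its place in the count of 2 therefore depends on those libraries. Without DMSO replicate 2 the values were 0.50 for ITGAL (limma adjusted p 0.0719) and 1.08 for ITGB2 (0.106), and without JG342 replicate 2 ITGB2 was at 1.07 (0.0583). ITGA4 and ITGAE, which encode the alpha chains that pair with beta 7, were not past the threshold, at −0.05 and −0.28. ITGB7 exceeded ITGA4 by 112 to 125 times and ITGAE by 892 to 1305 times in TPM. With the block 4 of the 16 passed.

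MAF, which drives ITGB7, CCND2 and CCR1 in this kind of myeloma, was at 323 and 320 TPM in DMSO and at 270 and 203 TPM in JG342. It fell by 0.46 ± 0.13 on the log2 scale (limma adjusted p 0.0417), while ITGB7 and CCND2 were at −0.05 and −0.08. CCR1 was at −0.44 and missed the threshold (limma adjusted p 0.0517). With the block the limma adjusted p of CCR1 was 1.38e-06, and with block and median scaling 0.00215. The fit with the block alone did not use the residual of the gene itself. The list counted here holds MAF, CCND2 and CCR1, and ITGB7 is counted with the antigens. No gene of the list was lower past the threshold without a filter, after quantile normalization or without the trend. In the main test MAF was the 1 gene of 3 past the threshold, with a list median of −0.44. It passed only without JG342 replicate 1. Without JG342 replicate 2 it was −0.25 (limma adjusted p 0.172), and without DMSO replicate 1 or 2 it was −0.45 (0.145) or −0.46 (0.156), and after quantile normalization −0.39 (0.0898). With the block 2 of the 3 passed.

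In the CD47 axis 2 of 6 tested genes were higher and none lower, with a median of 0.32. SIRPA, the phagocyte receptor of CD47, was at 22.5 and 16.3 TPM in DMSO and at 44.1 and 26.8 TPM in JG342 (0.81 ± 0.23, limma adjusted p 0.0386). Its relative SIRPB1 was at 0.70 and 0.39 TPM in DMSO and at 1.99 and 1.68 TPM in JG342 (0.88 ± 0.22, limma adjusted p 0.0269). These values correspond to about 11, 6, 28 and 27 reads. With a DMSO mean of 0.545 TPM, SIRPB1 entered the test only through its JG342 libraries. The count of 2 higher genes therefore depends on those libraries for SIRPB1. The SIRPA transcript shares 23.9% of its length with SIRPB1 at 100% identity, so how their shared reads were divided is uncertain. SIRPA was 0.46 without JG342 replicate 1 (limma adjusted p 0.142) and 0.59 without DMSO replicate 2 (0.218), and missed the threshold with median scaling (0.0754) and quantile normalization (0.0828). SIRPB1 missed it with quantile normalization (limma adjusted p 0.0582). SIRPB1 was at 1.03 without DMSO replicate 1 (limma adjusted p 0.0520), 0.74 without DMSO replicate 2 (0.144) and 0.96 without JG342 replicate 2 (0.0509), and without JG342 replicate 1 its mean was under 1 TPM and it was not tested. QPCTL, which modifies CD47 for SIRPA binding, was at 0.21 and did not pass. With the block 4 of the 6 passed.

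Around CD38, a list of NAD metabolism genes, ectoenzymes and PECAM1 had 1 of 9 tested genes higher and none lower, with a median of 0.31. NMNAT1, a nuclear enzyme of NAD synthesis, rose from 33.9 ± 1.34 to 45.2 ± 3.21 TPM (SD, n = 2; 0.40 ± 0.11, limma adjusted p 0.0380). It passed only without JG342 replicate 2 and lay between 0.33 and 0.44 without the others (limma adjusted p 0.123 to 0.174), and missed the threshold with median scaling (0.0530) and quantile normalization (0.0528). BST1, the relative of CD38, was at or below 0.15 TPM. With the block 4 of the 9 passed.

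Among 25 tested genes for other surface antigens of plasma and B cells, 4 were higher and 5 lower, with a median of 0.00. The transferrin receptor TFRC fell from 93.1 ± 3.12 to 54.1 ± 0.99 TPM (SD, n = 2; −0.77 ± 0.10, limma adjusted p 0.00173). The tetraspanin CD9 fell from 201 ± 29.1 to 114 ± 4.71 TPM (−0.81 ± 0.12, limma adjusted p 0.00276). CXCR4, the receptor that holds plasma cells in the marrow, fell from 37.4 ± 1.92 to 22.1 ± 0.05 TPM (−0.73 ± 0.11, limma adjusted p 0.00406). CD55, which protects cells from complement, rose from 25.9 ± 2.62 to 43.4 ± 3.22 TPM (0.73 ± 0.12, limma adjusted p 0.00584). These 4 genes passed with any 1 library left out.

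The remaining 5 of these antigens are named after their values were seen. CD59, which also protects from complement, was at 136 and 112 TPM in DMSO and at 85.3 and 62.6 TPM in JG342 (−0.75 ± 0.15, limma adjusted p 0.0121), opposite in direction to CD55. Without DMSO replicate 1 CD59 was at −0.61 (limma adjusted p 0.0769). CCR10, a homing receptor of plasma cells, fell by 0.81 ± 0.14 on the log2 scale (limma adjusted p 0.00602), and INSR, the insulin receptor, rose by 0.74 ± 0.13 (limma adjusted p 0.00718), both also with any 1 library left out. NCAM1 (CD56) rose from 4.36 ± 2.22 to 10.4 ± 2.71 TPM (SD, n = 2; 1.13 ± 0.28, limma adjusted p 0.0247). CD44, the hyaluronan receptor, rose by 0.44 ± 0.13 (limma adjusted p 0.0468). Exons of CNTNAP1 and of a clone-named gene overlap 14.5% and 16.8% of CCR10 on the other strand. NCAM1 was at 0.70 without DMSO replicate 2 (limma adjusted p 0.133) and 0.89 without JG342 replicate 1 (0.0829), and CD44 at 0.31 (0.289) and 0.28 (0.196) without the same libraries and 0.57 (0.0574) without DMSO replicate 1. Median scaling also ended both calls, at 1.07 for NCAM1 (limma adjusted p 0.0540) and 0.37 for CD44 (0.106), and quantile normalization that of NCAM1 (0.0606). With the block 14 of the 25 passed.

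**Figure D4:**
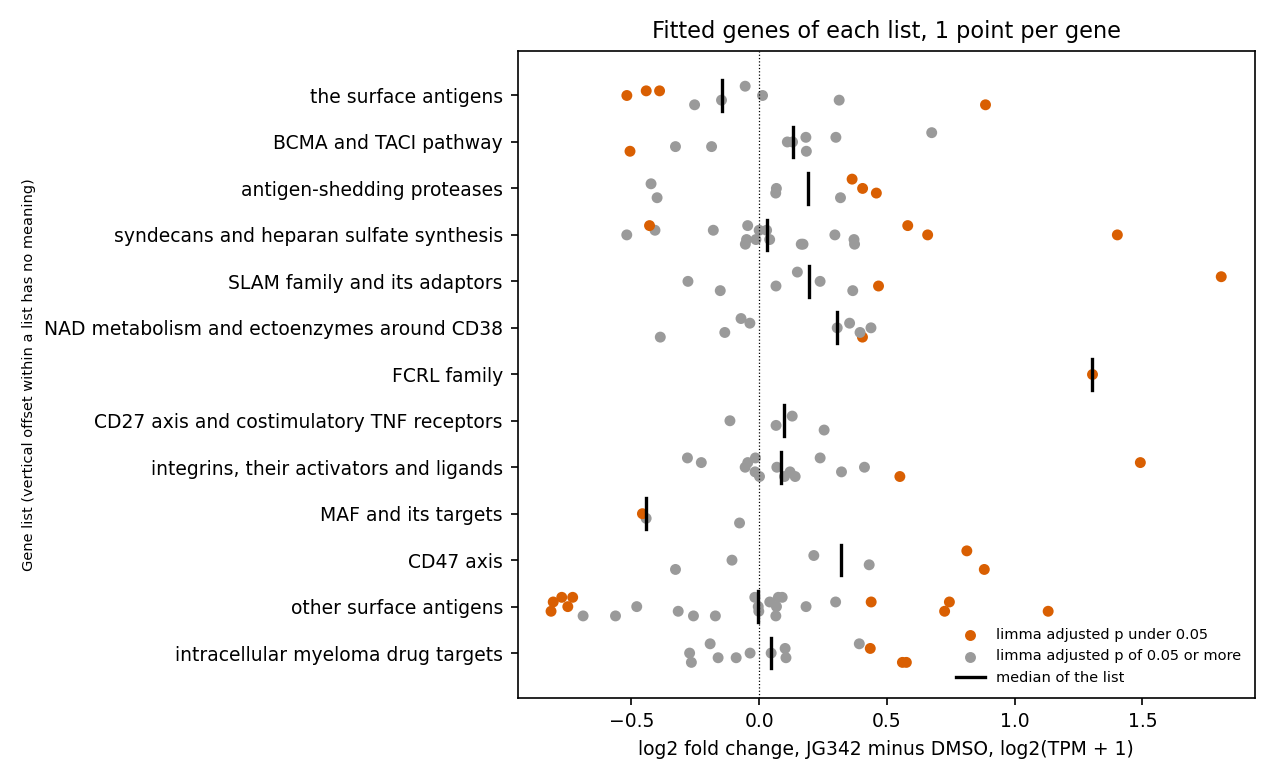
Log2 fold change of every tested gene of each list, 1 point per gene (orange where the limma adjusted p was under 0.05), with the list median as a black bar. Calls on both sides of 0 occur among the antigens themselves, the syndecan list and the other surface antigens, and FYN, ITGB2, SDC3 and FCRLA lie furthest to the right. ITGB2 and SIRPB1 had a DMSO mean under 1 TPM and entered the test only through their JG342 libraries.

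Drug targets inside the myeloma cell were followed beside those on its surface, and 3 of 13 tested genes were higher and none lower, with a median of 0.05. HDAC6, a deacetylase of the aggresome pathway, rose by 0.58 ± 0.12 (limma adjusted p 0.0115). MCL1 and BCL2, survival factors of the BCL2 family, rose by 0.43 ± 0.09 and 0.56 ± 0.14 (limma adjusted p 0.0120 and 0.0273). HDAC6 and MCL1 lost their calls without either DMSO library (limma adjusted p 0.0571 to 0.0994, values 0.40 to 0.62). BCL2 was at 0.39 without DMSO replicate 2 (limma adjusted p 0.187) and 0.49 without JG342 replicate 1 (0.0917), and missed the threshold with median scaling (0.0591) and quantile normalization (0.0605). CRBN, the target of lenalidomide, and its substrates IKZF1 and IKZF3 were at 0.10, −0.09 and 0.05 and did not pass. With the block 6 of the 13 passed.

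Markers of the plasma cell state moved in both directions beside the antigens, and their part in the results was not tested. Of the 5 further markers, 2 were higher and 1 lower. IRF4, the transcription factor on which myeloma cells depend, rose from 353 ± 0.17 to 602 ± 18.9 TPM (SD, n = 2; 0.77 ± 0.09, limma adjusted p 0.000986). PRDM1, which fixes the plasma cell fate, rose by 0.36 ± 0.10 (limma adjusted p 0.0410), and JCHAIN fell from 10145 ± 337 to 5581 ± 213 TPM (−0.86 ± 0.10, limma adjusted p 0.00117). IRF4 and JCHAIN passed with any 1 library left out, whereas PRDM1 passed only without JG342 replicate 2 and was at 0.26 without DMSO replicate 2 (limma adjusted p 0.267), 0.31 without JG342 replicate 1 (0.145) and 0.46 without DMSO replicate 1 (0.0619). After median scaling PRDM1 was at 0.29 (limma adjusted p 0.0974). XBP1 and MZB1 were at 0.12 and −0.03 and did not pass. The summed level of the 5 markers was 13187 and 13337 TPM in DMSO and 9256 and 8843 TPM in JG342, most of it JCHAIN. Of the T and NK, myeloid, B-cell and stromal markers, CD3E, GNLY and LYZ alone reached the mean of 1 TPM and were tested. None of these passed in limma, and 1 of them, CD3E, had an unadjusted p under 0.05 and passed with the block.

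**Figure D5:**
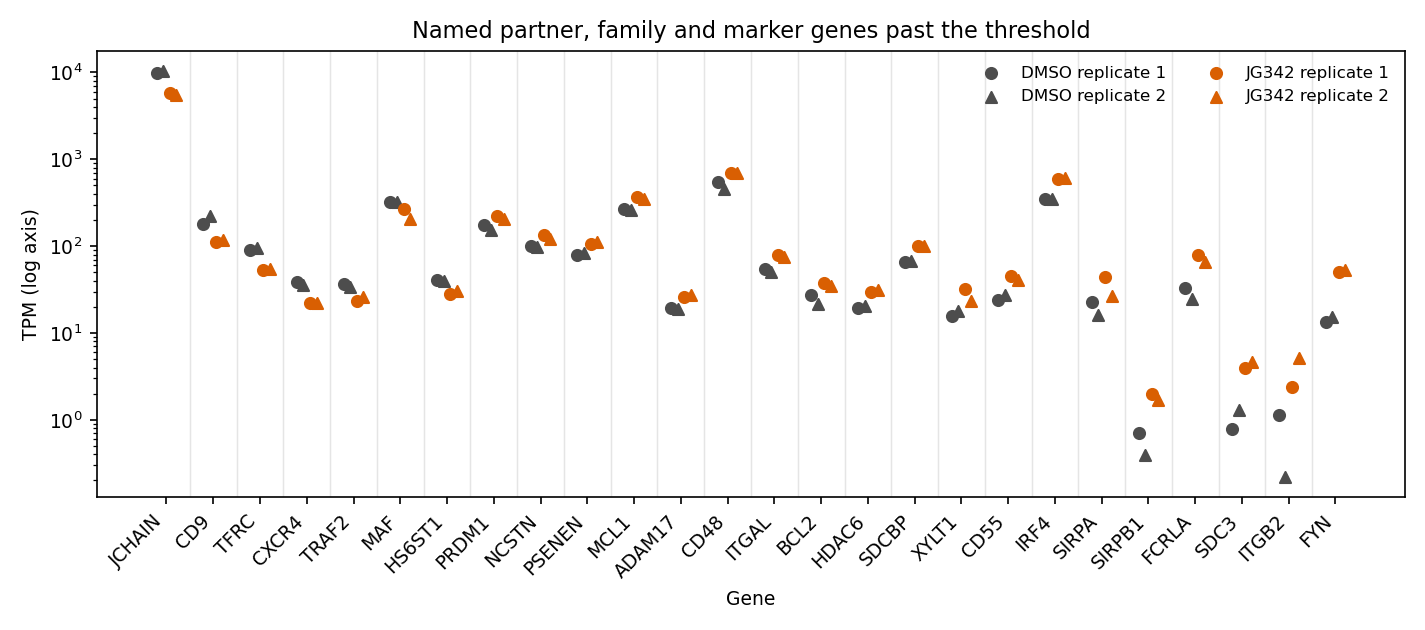
Level in TPM on a log axis of 26 partner, family and marker genes that passed the test (NMNAT1 and the genes named after their values were seen are not drawn), ordered by log2 fold change from JCHAIN to FYN (grey DMSO, orange JG342, circles replicate 1, triangles replicate 2). Orange points lie below the grey ones from JCHAIN to HS6ST1 and above them from PRDM1 to FYN.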

How the data were processed

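RNA from MM.1S cells was sequenced in 4 libraries, 2 with JG342 and 2 with DMSO. The authors deposited TPM values per gene in 1 table whose column names are the sample titles. The unit was read from the values, since the 4 columns sum to nearly the same total. HISAT2 2.0.4, Bowtie2 2.2.5 and RSEM 1.2.12 are named, per the submitters' processing notes. The genome build, annotation and use of strand are not given in the sources used here.

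Testing covered genes whose mean reached 1 TPM and was done in limma 3.58.1 (R 4.3.3) on log2(TPM + 1), with treatment as the only term, a mean-variance trend and Benjamini-Hochberg adjustment over all 12042 genes, at a threshold of 0.05. Adding 1 TPM understates the change of low genes. The scripts were tested on simulated data. The approximate depth came from the steps between values up to 0.5 TPM in transcripts of at least 1500 nt. Overlapping antisense genes were taken from GENCODE 29, and near-identical copies from blastn 2.17.0 (95% identity or more, covering 20% or more of a transcript).

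Same-numbered libraries share a prefix in the labels' descriptions, whose meaning is not stated. It was read as a sign that the numbers pair the libraries, and with 2 pairs this reading could not be settled from the data. Over 12042 genes deviations from the group means correlated between same-numbered libraries, across genes, at Pearson r 0.27 and Spearman rho 0.30, and genes are not independent replicates. The fit with the replicate block was an alternative, as were another pseudocount (0.1), filter (none, or a mean of 5 TPM), scaling (median, quantile), no trend, and leaving out each library.

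The antigens and the gene lists were chosen with earlier results of these data known. All 10 antigens are described. In each further list up to 4 genes past the threshold with the smallest p are named, and where none passed, the gene with the highest mean. Other genes given with a value were chosen after their values were seen.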

Additional observations from a re-analysis of the deposited data

How the results depend on the processing

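The number of genes past the threshold depended on the processing. Against 1304 higher and 917 lower genes, no filter gave 533 and 295, the replicate block 2316 and 1891, the block with median scaling 1675 and 2310, and a fit without trend left 526 lower genes. Leaving out 1 library gave 581 to 1144 higher and 192 to 761 lower genes. Of the antigens, none was higher (0) without a filter, and 2 were higher with the replicate block. Raising the filter to 5 TPM also gave 0, but CD27, averaging 4.56 TPM, was removed before that test. Its call was therefore not tested under that filter. The number lower was 1 with no filter, median scaling, quantile normalization or no trend, and 0 to 3 with 1 library left out.

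The sign changed only for genes that had not passed. CD38 was at 0.012, from −0.31 to 0.012 with 1 library left out, the highest without JG342 replicate 1. ITGB7 was at 0.24 after quantile normalization, and from −0.25 to 0.14 with 1 library left out, above 0 without DMSO replicate 1 (0.051) or JG342 replicate 2. CD47 was at −0.055 with median scaling, with or without the replicate block, −0.0015 after quantile normalization, and from −0.046 to 0.072 with 1 library left out, below 0 without DMSO replicate 1 or JG342 replicate 1. CD70 was at −0.0018 with median scaling, with or without the block. GNLY was at −0.038 after quantile normalization and from −0.62 to 0.75 with 1 library left out. LYZ was at −0.013 with median scaling, with or without the block, and from −0.085 to 0.19 with 1 library left out. The cause was not tested. Over the antigens and alternatives, 78 values kept direction and call, 17 lost the call, 3 gained it and 9 changed sign. With 2 libraries a group, a library left alone is assumed to vary like the other group. CD27, at about 15 to 48 reads, and FCRL5 are limited by depth.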
